A study of Homo sapiens with 13 samples.

Results

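The levels of 6 genes of a metastasis pathway, namely the transcription factors BACH1 and SNAI1, the chromatin proteins HMGA1 and HMGA2, the RNA-binding protein LIN28B and the enzyme HMOX1, were followed in human breast cancer xenografts. They were found by symbol. All 6 are among the 57820 gene identifiers of the bulk table, and 5 are among the 15005 genes of the single-cell table, in which LIN28B was not found. The tumours grew from BM1, a line selected for spread to bone and originally derived from MDA-MB-231, in athymic nude mice that received 1000000 cells in a mammary fat pad. The bulk arms were 5 vector-control tumours (CTRL) and 5 tumours overexpressing human KMT5C, a histone methyltransferase, collected at 4 weeks. Both sets of cells were made by lentiviral transduction and selection with the plasmid pLV-EF1a-IRES-Hygro, named for its EF1a promoter. The single-cell arms were 3 vector-control tumours (BM1-VC, also CTRL) and 3 tumours of BM1-RKIP-S153E cells (RKIP), collected at 3 weeks, 1 of each arm in each of 3 replicate experiments. The S153E construct is counted under rat Pebp1. Its promoter, and whether any of these stable cells came from 1 clone, are not given in the sources used here, so differences between the injected cells that preceded a construct cannot be told apart from its effect. Nude mice lack T cells and keep other host cells. The single-cell tumours were dissociated and depleted of mouse and dead cells, and the bulk tumours were homogenised whole.

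RKIP, the product of PEBP1, holds back the RAF-MEK-ERK kinase cascade, and in the pathway as described from breast cancer work this cascade acts through MYC on LIN28B. LIN28 proteins block the maturation of the let-7 microRNAs, and let-7 represses messages with matching sites, among them HMGA2 and BACH1. HMGA1 and HMGA2 bind AT-rich DNA and are high in embryonic and aggressive tumour cells. HMGA2 is known to raise SNAI1, a repressor of epithelial genes. BACH1 is a haem-sensing factor that represses haem and antioxidant genes, with HMOX1, the haem oxygenase, as its classic target, and that is also known to activate genes of invasion such as MMP1 and CXCR4. BACH1 and RKIP are known to repress each other.

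The let-7 sequences and their matches show which of the 6 messages carry the letters that tie them to the pathway. Mature let-7 levels were not analysed here. In RefSeq (GRCh38.p14), 9 mature forms from 12 loci share one seed, bases 2 to 8. Those shown differ only after the seed or at the first base, and the seed is in capitals.
hsa-let-7a-5p: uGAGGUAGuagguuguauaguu
hsa-let-7b-5p: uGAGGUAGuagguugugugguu
hsa-let-7d-5p: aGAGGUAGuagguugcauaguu
hsa-let-7g-5p: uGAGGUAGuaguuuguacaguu
hsa-miR-98-5p: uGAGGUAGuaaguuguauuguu
The letters CTACCTC, which pair with this seed, were searched on the transcript strand of the 3′ UTR of 1 principal transcript per gene (GENCODE 29, GRCh38). HMGA2 held 4 matches, LIN28B 4, BACH1 2 and HMGA1 1, and HMOX1 and SNAI1 held 0 in these windows. Of 18929 genes, 8.60% held at least 1. Among genes with a 3′ UTR within 10% of the same length, HMGA2 included, 15.4% of 918 held a match and 0.109% held as many as HMGA2. For BACH1, itself included, 17.7% of 841 such genes held a match and 1.78% held as many. A match is a description of letters and not a measured site. The sites of HMGA2 on chromosome 12, BACH1 on chromosome 21 and HMGA1 on chromosome 6 are shown with the match in capitals, all on the plus strand and in the 3′ UTR.
HMGA2 site 1, chr12:65963299-65963320: ccaacgttcgatttCTACCTCa
HMGA2 site 2, chr12:65964534-65964555: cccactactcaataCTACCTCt
HMGA2 site 3, chr12:65964946-65964967: tgacttgcaaagacCTACCTCc
HMGA2 site 4, chr12:65965799-65965820: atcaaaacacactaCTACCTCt
BACH1 site 1, chr21:29344800-29344821: gaacccttgatttcCTACCTCa
BACH1 site 2, chr21:29345100-29345121: tacaagtaactacaCTACCTCa
HMGA1 site 1, chr6:34245830-34245851: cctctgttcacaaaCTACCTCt
Both BACH1 matches and the first HMGA2 match are followed by an adenine, a letter known to favour repression.

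Bulk libraries held 37050750 to 49536763 counts, and 1568 cells were analysed, with 247, 267 and 258 cells in CTRL tumours 1 to 3 and 266, 274 and 256 in RKIP tumours 1 to 3. The experiment numbers are arbitrary. Both tumours of experiment 1 had fewer detected genes per cell (medians of 3130 and 3305) than the other 4 (4361 to 4953.5), although their median counts per cell were the highest. Genes high in MDA-MB-231 summed to 7987 to 10330.4 CPM in the bulk CTRL tumours, and ESR1, an oestrogen receptor that this line lacks, was at 0.211 ± 0.116 CPM (SD, n = 5). KMT5C was 7.16 to 11.2 CPM in the CTRL tumours and 99.8 to 145 CPM in the KMT5C tumours. In the single-cell CTRL tumours rat Pebp1 was at 0, 0.608 and 0.294 CPM, and in the RKIP tumours at 11.9, 205 and 126 CPM, so RKIP tumour 1 carried far less of it than the others. CPM is counts per 1000000 counts of the TMM-scaled library and is not corrected for gene length, so levels are compared within a gene only. Cells of the arms sat in separate columns of each array (0 of 20 columns shared), so array column and arm cannot be told apart.

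No member passed the test in the KMT5C comparison. All 5 members with enough counts to test, which exclude LIN28B, had adjusted p-values of 0.199 or more (edgeR quasi-likelihood test, threshold 0.05), so 0 of 5 were called where 2.96% of the 17947 genes tested were called. At an unadjusted p under 0.05, 1 of the 5, BACH1, passed, where 3010 of the 17947 genes tested did. Their log2 fold changes ran from 0.06 to 0.41, with a median of 0.09 against 0.00 over all genes tested. DESeq2, with adjusted p-values of 0.145 or more for these 5, also called none of them. In whole tumours, a change in the number of cells of a type and a change of RNA per cell cannot be told apart.

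BACH1 (ENSG00000156273.11) had the smallest p-value of the members. Its level in CTRL tumours 801, 803, 804, 813 and 815 was 117, 78.0, 78.6, 119 and 102 CPM. In KMT5C tumours 807, 809, 816, 820 and 823 it was 116, 134, 104, 123 and 133 CPM. CTRL tumours 803, 804 and 815 lay below all KMT5C tumours, and the other 2 lay within the KMT5C range. The means were 98.9 ± 19.99 and 122 ± 12.5 CPM (SD, n = 5 each), a log2 fold change of 0.30 (SE 0.12, edgeR adjusted p = 0.199). Leaving out each tumour in turn gave 0.23 to 0.39, with a lowest adjusted p of 0.101.

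HMGA1 (ENSG00000137309.15) was 2965, 3874, 4106, 3623 and 3331 CPM in the CTRL tumours and 3276, 3669, 3620.2, 3745 and 4341 CPM in the KMT5C tumours, in the same order. The arms overlapped almost fully, with a log2 fold change of 0.06 (SE 0.10, edgeR adjusted p = 0.832). HMGA2 (ENSG00000149948.9) was 201, 176, 170.0, 206 and 215 CPM in the CTRL tumours and 217, 215, 210.1, 205 and 182 CPM in the KMT5C tumours. Here 4 of the 5 KMT5C tumours sat at the upper end of the CTRL range and tumour 823 fell among the lower CTRL values, for a log2 fold change of 0.09 (SE 0.08, edgeR adjusted p = 0.635). Reads of HMGA1 can be shared with its processed pseudogenes, of which the best counted, HMGA1P1, HMGA1P2, HMGA1P3 and HMGA1P8, were each at most 0.328 CPM on average in both arms. HMGA2 is overlapped by antisense genes, RPSAP52 at 7.96 ± 1.79 and 6.95 ± 1.38 CPM and HMGA2-AS1 at 4.66 ± 1.93 and 5.38 ± 2.76 CPM (CTRL and KMT5C, SD, n = 5 each). Since the strand setting of the counting is not given, reads of HMGA2 and of these partners cannot be fully told apart.

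LIN28B (ENSG00000187772.6), which would sit between MYC and let-7, was barely counted. The CTRL tumours held 0, 1, 1, 0 and 4 reads of it and all 5 KMT5C tumours held 0, too few for a test or a fold change. Its relative LIN28A was equally low, at 0.0174 ± 0.0239 CPM with the vector and 0.0258 ± 0.0278 CPM with KMT5C (SD, n = 5 each).

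HMOX1 (ENSG00000100292.12) varied more from tumour to tumour than between the arms. It was 40.1, 51.1, 34.9, 25.7 and 27.4 CPM in the CTRL tumours and 41.3, 18.2, 69.3, 21.7 and 38.1 CPM in the KMT5C tumours. KMT5C tumours 809 and 816 held the lowest and the highest values of all 10, and the log2 fold change was 0.08 (SE 0.37, edgeR adjusted p = 0.947). SNAI1 (ENSG00000124216.3) was low throughout, at 1.48, 1.63, 1.24, 2.33 and 2.13 CPM in the CTRL tumours and 1.98, 3.03, 2.66, 1.61 and 2.46 CPM in the KMT5C tumours. The KMT5C tumours held the 3 highest values, the arms overlapped, and the log2 fold change was 0.41 (SE 0.21, edgeR adjusted p = 0.331).

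**Figure D1:**
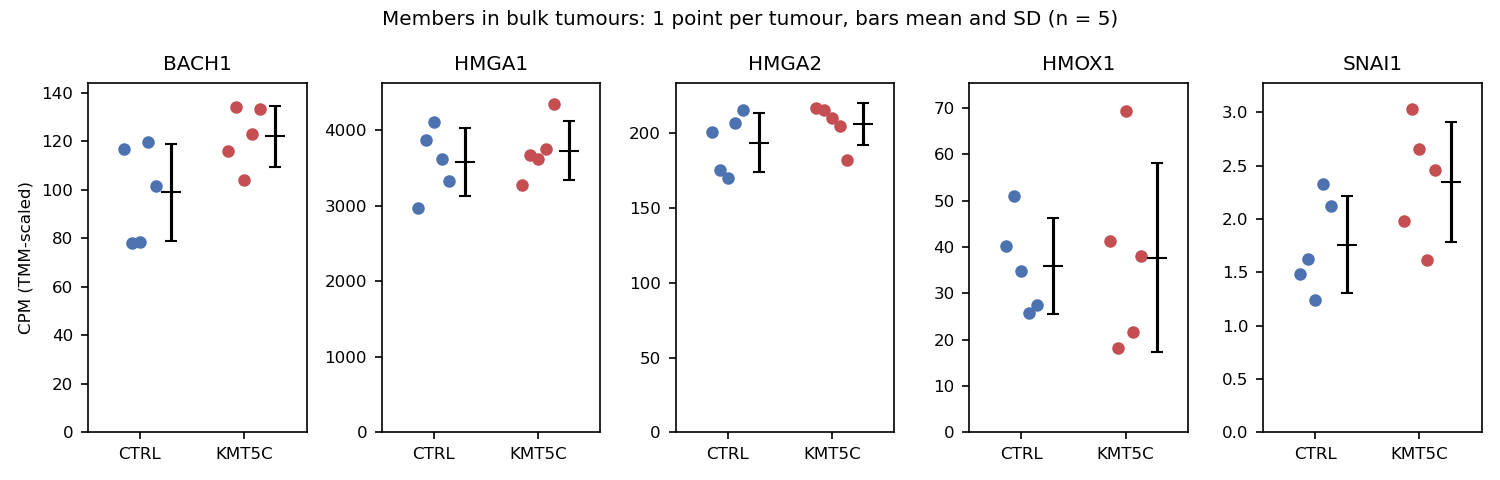
CPM of 5 members (y axis, from 0, a separate scale for each gene) in the 5 CTRL and 5 KMT5C bulk tumours, 1 point per tumour, with the mean and SD beside the points. The arms overlap for every gene shown, and HMOX1 has its widest spread in the KMT5C arm, from 18.2 to 69.3 CPM.

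Across the 10 bulk tumours, HMGA1 and HMGA2 tended to run in opposite directions. The 2 tumours highest in HMGA1, KMT5C 823 and CTRL 804, had low HMGA2, at 182 and 170.0 CPM. The tumour lowest in HMGA1, CTRL 801, did not follow this, with HMGA2 at 201 CPM, below the median of the 10. Pearson's r was -0.66 (permutation p = 0.0392, adjusted over the 10 member pairs 0.213) and Spearman's rho was -0.64 (permutation p = 0.0554, adjusted 0.325). Without the 2 tumours farthest from the median in HMGA1, r was -0.84. The relation does not pass the adjustment for 10 pairs. BACH1 and HMGA2 gave r = 0.61 (permutation p = 0.056, adjusted 0.213; rho = 0.32, permutation p = 0.369, adjusted 0.738), and r turned to -0.47 without the 2 tumours farthest from the median in BACH1, so that value rested on those tumours. BACH1 and its classic target HMOX1 gave r = -0.46 (permutation p = 0.184, adjusted 0.368) and rho = -0.59 (permutation p = 0.0824, adjusted 0.325), and r was -0.49 without the 2 farthest. SNAI1 gave r = 0.61 with BACH1 (permutation p = 0.064, adjusted 0.213) and r = 0.57 with HMGA2 (permutation p = 0.088, adjusted 0.22). Without the 2 tumours farthest from the median in BACH1 or in HMGA2, these fell to 0.18 and 0.10. None of the 10 pairs passed the adjustment. The CTRL and KMT5C arms were pooled, and values were permuted across them. A shift between the arms shared by both genes of a pair therefore cannot be told apart from a relation within an arm.

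Around the members, the wider pathway moved little with KMT5C. Among the RAF-MEK-ERK genes and MYC 0 of 12 were called, with a median log2 fold change of 0.07; the smallest p-values were those of HRAS at 0.24 (SE 0.11) and MAP2K2 at 0.18 (SE 0.09). PEBP1 itself averaged 273 ± 23.1 CPM with the vector and 265 ± 7.01 CPM with KMT5C (SD, n = 5 each; edgeR adjusted p = 0.811). Of the let-7 processing genes, 1 of 11 tested rose. That gene was TUT7, an enzyme that adds uridines to let-7 precursors. Its level was 41.0, 31.7, 34.1, 37.5 and 42.0 CPM in the CTRL tumours and 55.0, 53.0, 51.9, 52.8 and 46.1 CPM in the KMT5C tumours. Every KMT5C tumour lay above every CTRL tumour, though the share of all genes that do so was not counted. The log2 fold change was 0.47 (SE 0.09, edgeR adjusted p = 0.00571). DIS3L2, the nuclease that degrades uridylated let-7 precursors, averaged 27.9 ± 1.69 CPM with the vector and 24.2 ± 1.52 CPM with KMT5C and did not pass (SD, n = 5 each; edgeR adjusted p = 0.161). Among the let-7 host transcripts 0 of 6 were called, with MIRLET7BHG at -0.35 (SE 0.10, edgeR adjusted p = 0.0835) and MIR100HG at -0.13 (SE 0.08). Of the other let-7 targets 0 of 22 were called, with a median of 0.08. The ubiquitin-conjugating enzyme CDC34 had the smallest p-value there at 0.33 (SE 0.09, edgeR adjusted p = 0.0708), and DICER1, the nuclease that cuts miRNA precursors and is itself a let-7 target, was at 0.33 (SE 0.12, edgeR adjusted p = 0.169). Some of these genes passed under other settings. DESeq2 called MIRLET7BHG (adjusted p = 0.04) and CDC34 (adjusted p = 0.0287), and CDC34 also passed edgeR with no filter on low counts (adjusted p = 0.0196). Without CTRL tumour 801, edgeR called MIRLET7BHG (adjusted p = 0.0292) and DICER1 (adjusted p = 0.0365).

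On the BACH1 side, 1 of 13 haem, iron and antioxidant genes that BACH1 is known to repress fell. It was SLC7A11, the cystine importer that feeds glutathione synthesis and is also a target of NFE2L2. Its level was 44.8, 36.7, 30.6, 36.4 and 47.3 CPM in the CTRL tumours and 23.0, 31.5, 24.8, 26.4 and 26.6 CPM in the KMT5C tumours. Only KMT5C tumour 809 lay within the CTRL range, above CTRL tumour 804, and the log2 fold change was -0.56 (SE 0.11, edgeR adjusted p = 0.012). The list's median was -0.08. The ferritin light chain FTL averaged 1123 ± 196 CPM with the vector and 1125 ± 398 CPM with KMT5C (SD, n = 5 each). Of 9 BACH1 partners and regulators 0 were called, with NFE2L2, which competes with BACH1 for its sites, at 0.18 (SE 0.07) and KEAP1, which holds NFE2L2 down, at 0.11 (SE 0.06). Of 6 genes that BACH1 is known to activate 0 were called, with the chemokine receptor CXCR4 at 0.22 (SE 0.11) and the collagenase MMP13 at 0.21 (SE 0.17). MMP1 averaged 128 ± 27.0 and 161 ± 102 CPM (CTRL and KMT5C, SD, n = 5 each). Haem synthesis and breakdown genes (0 of 11 called) were led by ALAD at 0.18 (SE 0.07) and FECH at 0.18 (SE 0.10). EMT factors and SNAI1-linked genes (0 of 12 called) were led by TWIST1, a mesenchymal transcription factor, at 0.49 (SE 0.20) and the tight junction gene CLDN1 at -0.34 (SE 0.15). Among cell-cycle genes, 0 of 20 of G2 and M phase and 0 of 19 of S phase were called, with TPX2 at 0.19, CDK1 at 0.13, CHAF1A at 0.26 and RRM1 at 0.24 nearest to the threshold. In the genes high in MDA-MB-231 (0 of 6) S100A4 was at -0.41 (SE 0.11, edgeR adjusted p = 0.0503, and 0.0168 with DESeq2, 0.00135 with no filter and 0.03 to 0.0321 without CTRL tumour 801 or 815 or KMT5C tumour 823) and CD44 at 0.09, and in the luminal genes that the line lacks or holds low (0 of 4) KRT19 was at 0.18 and ESR1 at 0.59. Of the antisense and pseudogene partners 0 of 7 were called, led by RPSAP52 at -0.20 and HMGA1P1 at 0.25.

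Genes listed for host cell types differed between the bulk arms, and whether this is a difference of host cells was not tested. In the single-cell CTRL tumours, which were depleted of mouse cells, the 2 leukocyte genes in the table summed to 83.7 to 128 CPM. There the 3 endothelial genes summed to 18.0 to 30.8 CPM, the 3 muscle genes to 14.6 to 25.2 CPM and the 2 fibroblast genes to 3.42 to 4.05 CPM. These single-cell sums cover fewer genes of each list than the bulk sums, for muscle 3 genes against 12. The levels are thus not comparable between the tables, and the source of the single-cell counts was not tested. Skeletal muscle genes summed to 22.9 to 32.0 CPM in the CTRL tumours and 36.3 to 65.0 CPM in the KMT5C tumours, and 6 of 11 tested rose, among them CKM at 1.48, MYH4 at 1.31, TNNC2 at 1.28 and ACTA1 at 1.10 on the log2 scale. Summed leukocyte and macrophage genes ran from 125 to 173 CPM in CTRL and 94.0 to 123 CPM in KMT5C tumours, with 1 of 5 tested, LAPTM5, lower at -0.65. Endothelial genes summed to 57.2 to 83.8 and 40.2 to 65.7 CPM, with 1 of 5 tested, TIE1, lower at -0.63 (edgeR adjusted p = 0.0254). That call was lost with no filter on low counts (edgeR adjusted p = 0.158) and without any 1 of CTRL tumours 804, 813 and 815 or KMT5C tumours 807, 809, 816 and 820 (edgeR adjusted p from 0.051 to 0.0878). The muscle call of ACTA1 was lost with no filter (edgeR adjusted p = 0.092). Fibroblast, adipocyte and erythroid lists had 0 of 5, 0 of 2 and 0 of 1 called, with COL1A2 at 0.41, COL1A1 at 0.33, PLIN1 at -0.43, FABP4 at -0.15 and ALAS2 at 0.43. With the muscle level as a covariate, TUT7 was at 0.55 (edgeR adjusted p = 0.203) and SLC7A11 at -0.57 (edgeR adjusted p = 0.421), so neither call held. Nor did those of LAPTM5, at -0.50 (edgeR adjusted p = 0.394), and TIE1, at -0.48 (edgeR adjusted p = 0.595). The 4 muscle genes named also lost their calls. They belong to the list whose mean log2 level is the covariate, so that loss was built into the fit. Of the members, the same fit moved HMOX1 most, from 0.08 to 0.92 (SE 0.47, edgeR adjusted p = 0.634), and put BACH1 at 0.19 (SE 0.19, edgeR adjusted p = 0.83). Because the muscle level separates the arms, that fit leaves little of the arm difference to test. Only 22 of all genes were called in it.

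**Figure D2:**
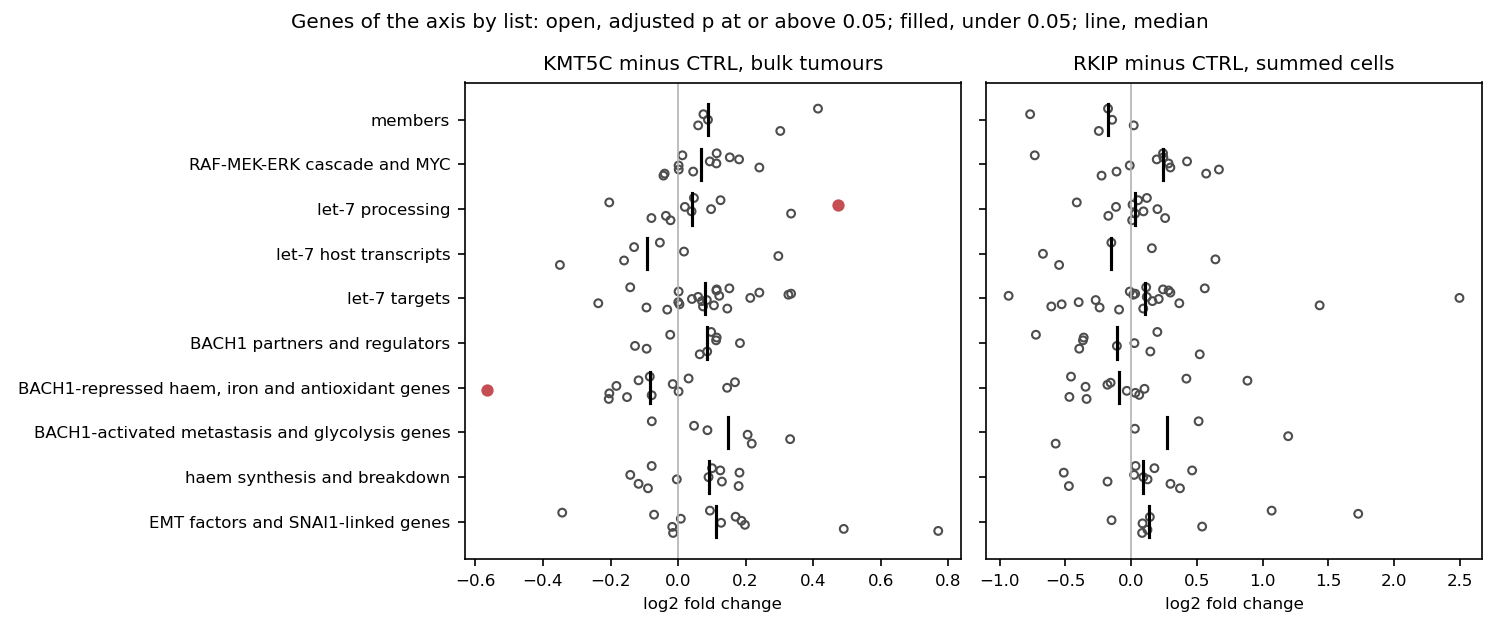
Log2 fold change (x axis) of each tested gene of the axis, by list (y axis), in bulk tumours (left) and in summed single cells (right), with the list median as a line and genes under an adjusted p of 0.05 filled. Filled points are TUT7 and SLC7A11 on the left, and there are none on the right.

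In the RKIP comparison no member passed the test in its summed single-cell counts. The 5 measured members had adjusted p-values of 0.976 or more (edgeR with the replicate experiment as a block), so 0 of 5 were called where 0.00678% of 14755 genes were called, which is 1 gene, the rat Pebp1 transgene. Even that call was lost without experiment 2 (edgeR adjusted p = 0.0915) or experiment 3 (edgeR adjusted p = 0.193). None of the 5 had an unadjusted p under 0.05, where 581 of the 14755 genes tested did, and DESeq2 called none of them. Their median log2 fold change was -0.18. With 3 pairs, the standard errors ran from 0.11 for HMGA1 to 0.86 for SNAI1.

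BACH1 was 245, 128 and 120.02 CPM in CTRL tumours 1, 2 and 3 and 157, 124 and 115 CPM in the RKIP tumours of the same experiments. It was lower in the RKIP tumour of all 3 pairs, but by much the most in experiment 1, where the RKIP tumour carried the least transgene. The log2 fold change was -0.25 (SE 0.17, edgeR adjusted p = 0.976), and without experiment 1 it was -0.05. Endogenous PEBP1 was also lower in all 3 RKIP tumours, at 274, 270.1 and 279 CPM against 366, 301 and 299 CPM (-0.22, SE 0.12, edgeR adjusted p = 0.976).

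HMGA1 was 1125, 1083 and 888 CPM in the CTRL and 959, 1263 and 930.1 CPM in the RKIP tumours, lower in 1 pair and higher in 2 (log2 fold change 0.02, SE 0.11, edgeR adjusted p = 0.995). HMGA2 was 88.8, 104 and 61.9 CPM in the CTRL and 74.1, 76.0 and 75.4 CPM in the RKIP tumours. The RKIP values lay close together inside the wider CTRL range, with a log2 fold change of -0.14 (SE 0.21, edgeR adjusted p = 0.978). HMOX1 was 0.731, 1.11 and 4.78 CPM in the CTRL and 0.661, 0.552 and 2.17 CPM in the RKIP tumours, on summed counts of 11 to 130. Both tumours of experiment 3 stood above the others, and the RKIP tumour was the lower of each pair (-0.77, SE 0.80, edgeR adjusted p = 0.976). SNAI1 was 3.17, 1.72 and 2.39 CPM in the CTRL and 1.2, 1.41 and 5.36 CPM in the RKIP tumours, lower in 2 pairs and higher in 1 (-0.18, SE 0.86, edgeR adjusted p = 0.995).

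**Figure D3:**
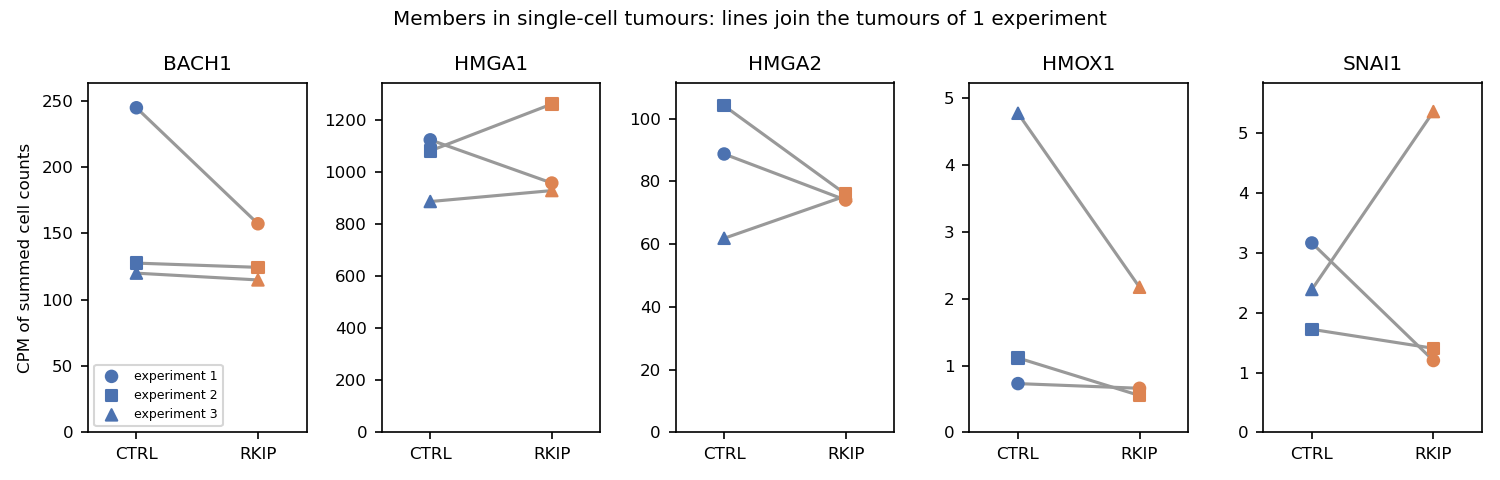
CPM of summed cell counts (y axis, from 0, a separate scale for each gene) in the 3 CTRL and 3 RKIP single-cell tumours, with lines joining the tumours of 1 experiment. BACH1 and HMOX1 are lower in the RKIP tumour on all 3 lines, and no difference passes the test.

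Of the lists around the members, none held a called gene in the RKIP comparison. The genes with the smallest p-values included GAPDH, a glycolytic enzyme that BACH1 is known to activate. It was 311, 229 and 254 CPM in the CTRL and 494, 318 and 335 CPM in the RKIP tumours. Every RKIP value lay above every CTRL value, but how many of all genes separate the arms in this way was not counted. The log2 fold change was 0.51 (SE 0.11, edgeR adjusted p = 0.976). MMP1 was 18.3, 21.5 and 19.1 CPM in the CTRL and 236, 35.04 and 12.9 CPM in the RKIP tumours, so RKIP tumour 1 stood far above the rest, and the log2 fold change was 1.19 (SE 0.82). Among genes that BACH1 represses (0 of 12 called, median -0.09), the thioredoxin reductase TXNRD1 was at -0.35 (SE 0.14) and GCLM, a subunit of the glutathione-forming ligase, at -0.47 (SE 0.24). SLC7A11 averaged 63.8 ± 23.0 CPM in the CTRL arm and 66.0 ± 7.27 CPM in the RKIP arm (SD, n = 3 each). In the RAF-MEK-ERK list 0 of 12 were called, with a median of 0.24. Other let-7 targets (0 of 22 called, median 0.10) had the cyclin CCND1 at 0.21 (SE 0.12). The let-7 processing genes (0 of 11 called) had DIS3L2 at -0.41 (SE 0.37) and AGO2 at 0.20 (SE 0.19), and the host transcripts (0 of 5) had MIRLET7BHG at -0.55 (SE 0.55) and HUWE1 at -0.15 (SE 0.18). BACH1 partners (0 of 9) had FBXO22, which marks BACH1 for degradation, at -0.36 (SE 0.25) and KEAP1 at -0.37 (SE 0.26). Haem genes (0 of 11) had HMOX2 at 0.46 (SE 0.18) and ALAS1 at 0.37 (SE 0.20), and EMT factors (0 of 8) had ZEB2 at 0.54 (SE 0.30) and FN1 at -0.15 (SE 0.11). Cell-cycle genes (0 of 20 in each list) had KIF20A at 0.70, CCNB2 at 0.47, CDT1 at -0.78 and CHAF1A at -0.41. The line's own markers had AXL at 0.28 and CD44 at 0.22, the luminal genes KRT19 at -0.26 and ERBB3 at -2.14, and the partners of the members HMGA1P8 at -0.48 and RPSAP52 at 0.21. Of the host lists, 3 of 13 muscle, 2 of 10 leukocyte, 3 of 6 endothelial and 2 of 7 fibroblast genes were in the table. The muscle genes had TTN at -0.87 and NEB at 0.30, leukocyte genes CSF1R at 1.32 and LAPTM5 at 0.11, endothelial genes PECAM1 at -0.48 and KDR at -0.14, and fibroblast genes PDGFRB at 0.72 and COL1A1 at 0.30, none of them called, and 0 adipocyte or erythroid genes were in the table.

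Seen cell by cell, HMGA1 was present in nearly every tumour cell, BACH1 and HMGA2 in a part of them, and HMOX1 and SNAI1 in few. For these counts each cell was thinned to 20000 counts, which leaves out 87 shallower cells. HMGA1 had at least 1 count in 94.6, 99.6 and 100% of cells of the CTRL tumours and in 96.9, 98.8 and 100% of cells of the RKIP tumours. BACH1 had at least 1 count in 42.3, 65.9 and 57.8% of CTRL cells and 38.1, 64.1 and 61.0% of RKIP cells. HMGA2 was counted in 41.9, 48.0 and 43.0% of CTRL cells and 38.8, 41.8 and 52.7% of RKIP cells. The 2 tumours of experiment 1 had the lowest BACH1 shares, 42.3% (exact binomial 95% interval 36.0 to 48.8) and 38.1% (32.1 to 44.3). Those intervals cover counting error only. Without thinning, BACH1 was counted in 71.5% of CTRL and 70.1% of RKIP cells and HMGA2 in 63.6 and 64.4%, each a mean of 3 tumours.

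The BACH1 share was low in experiment 1 while its summed level there was high. Cells of CTRL tumour 1 with any BACH1 held 8.63 thinned counts of it on average, and those of RKIP tumour 1 held 8.74. In the other 4 tumours the same mean ran from 3.71 to 4.34. The tenth of cells highest in BACH1 held 68.2 and 75.6% of all BACH1 counts in the tumours of experiment 1 and 47.0 to 51.4% in the others. For HMGA1 that part was also highest in experiment 1, at 37.1 and 31.5% against 23.5 to 25.2% in the others, and for HMGA2 it was 51.1 to 66.5%. Such a difference was also seen over all genes measured: over 8047 genes, the median log2 squared coefficient of variation across cells was 3.79 and 3.55 in the tumours of experiment 1 and 2.80 to 2.85 in the other 4. The lower number of detected genes per cell in experiment 1 moves with this pattern, and its part was not tested.

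HMOX1 was counted in 0.830, 2.03 and 5.91% of CTRL cells and 1.92, 0.781 and 1.66% of RKIP cells, that is in 2 to 14 cells of a tumour. SNAI1 was counted in 3.73, 3.25 and 3.38% of CTRL cells and 1.54, 2.73 and 4.56% of RKIP cells. Rat Pebp1, which CTRL cells should lack, was counted in 0, 1.63 and 1.27% of CTRL cells at the same depth, so stray counts occur. That transgene was far more abundant in the RKIP tumours than HMOX1 or SNAI1, so its rate need not hold for them, and theirs was not measured. The highest HMOX1 share was that of CTRL tumour 3, in 14 of 237 cells (exact binomial 95% interval 3.27 to 9.71%). In RKIP tumour 3, SNAI1 was counted in 11 cells, and 1 of them alone held 11 thinned counts. No share could pass a test over 3 pairs. The mean difference, RKIP minus CTRL, was -0.949 percentage points for BACH1 and 0.142 for HMGA2 (exact two-sided sign-flip p = 0.75 and 1.0 over 3 pairs, where the smallest p this design allows is 0.25). These differences moved with depth: at 10000 counts BACH1 was at -2.12 points, lower in all 3 pairs against 2 of 3 at 20000, and HMGA2 turned to -0.491 points. Unthinned, BACH1 was at -1.39 points although higher in 2 of 3 pairs, and HMGA2 was at 0.749 points.

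**Figure D4:**
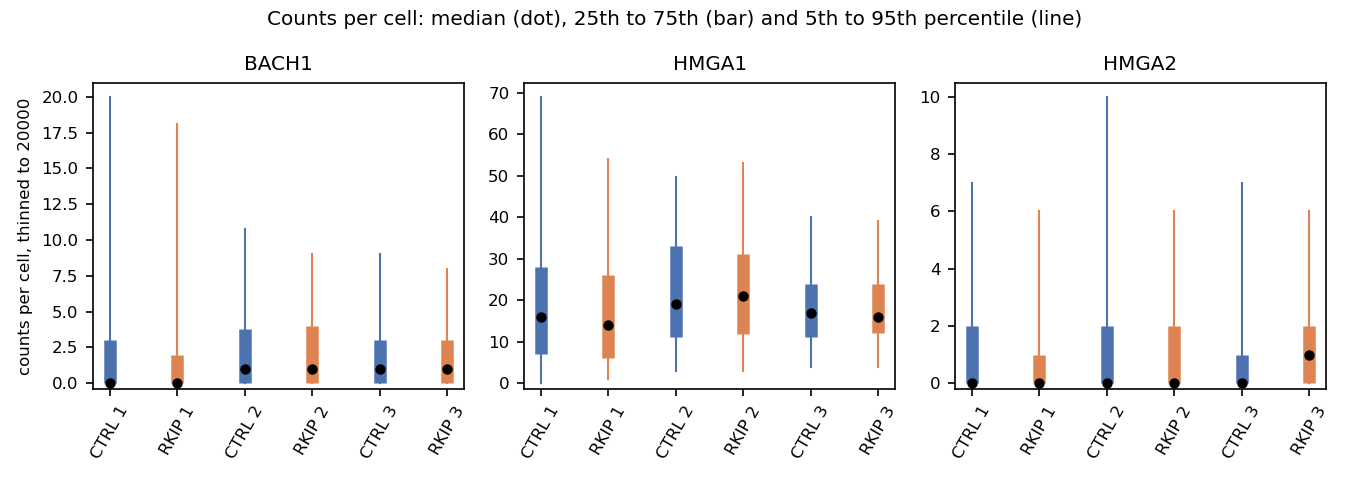
Counts per cell after thinning to 20000 counts (y axis, a separate scale for each gene) in each single-cell tumour, as median, middle 50% and 5th to 95th percentile. HMGA1 medians run from 14 to 21, and the upper tail of BACH1 is longest in both tumours of experiment 1.

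Cells with the rat Pebp1 transgene made up 3.85, 29.3 and 41.1% in RKIP tumours 1, 2 and 3 at the thinned depth. Cells with and without it were set side by side within the tumour. BACH1 averaged 3.30 thinned counts in the 10 positive cells of RKIP tumour 1 and 3.33 in the 250 others, 2.36 and 2.64 in RKIP tumour 2 (75 and 181 cells), and 2.14 and 2.35 in RKIP tumour 3 (99 and 142 cells). HMGA2 averaged 1.10 and 1.44, 1.07 and 1.66, and 1.62 and 1.81 in the same order. The means of both genes were thus lower in the positive cells of all 3 tumours, but the ranks of the cells did not share that direction. Spearman correlations with the rat Pebp1 count were -0.04, 0.0053 and 0.0071 for BACH1 and 0.04, -0.08 and 0.01 for HMGA2 in RKIP tumours 1, 2 and 3. HMGA1 averaged 29 and 18.6, 24.3 and 22.6, and 17.9 and 19.6, with no common direction. SNAI1 averaged 0 and 0.028, 0.04 and 0.0331, and 0.242 and 0.0563, and HMOX1 averaged 0 and 0.056, 0 and 0.011, and 0.101 and 0.00704. In RKIP tumour 3, 9 of the 11 cells with SNAI1 and 3 of the 4 with HMOX1 held the transgene, against 0 of 4 and 3 of 7 cells with SNAI1 and 0 of 5 and 0 of 2 with HMOX1 in RKIP tumours 1 and 2. These cells share a tumour and are not replicates, so no test was made. A negative cell may carry the transgene uncounted.

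Variation from cell to cell was tested for BACH1, HMGA1 and HMGA2. HMOX1 and SNAI1 did not reach a thinned mean of 0.1 in every tumour and were left out. Variation beyond what a gene's mean level predicts passed the test between the arms for none of the members tested. It was measured as the residual of the log2 squared coefficient of variation from the trend on the mean, and 0% of the 8047 genes tested were called (limma with the replicate block; 311 had an unadjusted p under 0.05). BACH1 had residuals of -0.02, 0.64 and 0.03 in the CTRL and 0.79, 0.17 and -0.23 in the RKIP tumours, a difference of 0.02 (SE 0.54, limma adjusted p = 0.998). CTRL tumour 2 and RKIP tumour 1 were the most variable, 1 in each arm. HMGA1 was at 0.17, -0.10 and -0.88 in the CTRL and -0.08, -0.25 and -0.97 in the RKIP tumours, and both tumours of experiment 3 were the most even. HMGA2 was at -0.41, 2.36 and 0.04 in the CTRL and -0.30, 0.13 and -0.31 in the RKIP tumours, a difference of -0.83 (SE 0.61, limma adjusted p = 0.9496). The high value of CTRL tumour 2 came from 1 cell with 144 thinned HMGA2 counts, where the next cell held 36. Without that cell the residual was 0.26 and the difference between arms -0.13.

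Within tumours BACH1, HMGA1 and HMGA2 varied almost independently of each other from cell to cell. Mean Spearman correlations over the 6 tumours (237 to 260 cells each) were -0.06 for BACH1 and HMGA1, -0.03 for BACH1 and HMGA2, and 0.06 for HMGA1 and HMGA2. By tumour, BACH1 and HMGA1 gave -0.05, -0.19 and -0.09 in the CTRL and 0.01, -0.04 and 0.01 in the RKIP tumours. BACH1 and HMGA2 gave -0.03, -0.02 and 0.03 in the CTRL and 0.02, -0.11 and -0.04 in the RKIP tumours. HMGA1 and HMGA2 were positive in 5 of 6 tumours, at most 0.12. SNAI1, counted in few cells, had a mean of -0.06 with HMGA1. That pair was positive in 0 of 6 tumours, and in 2 of 6 with cells thinned to 10000 counts. BACH1 and SNAI1 ran from -0.03 to 0.18. Cells of a tumour share their library and array, and in counts this sparse correlations of such size are a description and no finding.

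BACH1 and PEBP1, known to repress each other, had a mean of 0.05, with a range from -0.08 to 0.12 and 4 of 6 tumours positive. With cells thinned to 10000 counts that mean was -0.0039, with 1 of 6 positive, and BACH1 and HMGA1 were at -0.01. HMGA1 and PEBP1 were positive in all 6 (mean 0.08), and HMGA2 and PEBP1 were near 0 (mean 0.01). All of these genes also correlated positively with the number of genes detected in a cell, and the mean correlation with it was 0.15 for BACH1, 0.10 for HMGA1, 0.14 for HMGA2 and 0.21 for PEBP1. Holding the number of detected genes and a G2 and M phase score fixed, BACH1 and PEBP1 were at 0.00, BACH1 and HMGA2 at -0.05, and BACH1 and HMGA1 at -0.07.

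**Figure D5:**
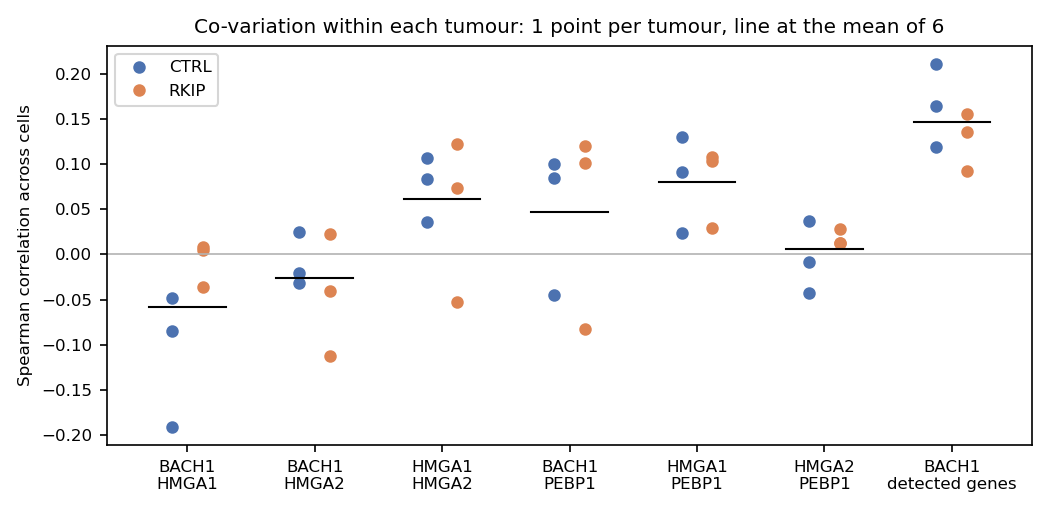
Spearman correlation across cells (y axis) of 6 gene pairs, and of BACH1 with the number of detected genes, with 1 point for each of 3 CTRL and 3 RKIP tumours and a line at the mean of 6. Pairs among BACH1, HMGA1 and HMGA2 straddle 0, while BACH1 with detected genes is above 0 in all 6.

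Cells at or above the 75th percentile of BACH1 were also set beside cells with none. HMGA2 averaged 1.11, 1.94 and 1.22 thinned counts in the BACH1-high cells of CTRL tumours 1, 2 and 3, and 2.22, 2.23 and 1.54 in cells without BACH1. In the RKIP tumours the values were 1.47, 0.80 and 1.25 in BACH1-high cells and 1.43, 1.85 and 2.10 in the others. HMGA2 was thus lower in the BACH1-high cells of 5 of 6 tumours, the exception being RKIP tumour 1. HMGA1 was lower in BACH1-high cells in 5 of 6 as well, most in CTRL tumour 2 at 19.1 against 25.8. The ranks of the cells showed less of this. Spearman correlations with BACH1 ran from -0.11 to 0.03 for HMGA2 and from -0.19 to 0.01 for HMGA1, each positive in 2 of 6 tumours. The tenth of cells highest in HMGA2 held 51.1 to 66.5% of its counts, so its means rest largely on those cells. Cells of a tumour are not replicates, and no test was made.

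The genes most like each member across cells were ranked among 4356 others by their mean Spearman correlation over the 6 tumours. For BACH1 they were DCTD at 0.14, the glucose transporter SLC2A1 at 0.14, ERRFI1, an inhibitor of the EGF receptor, at 0.13, the secreted hormone STC1 at 0.13 and the superoxide dismutase SOD1 at 0.13, each positive in all 6 tumours. The lowest were the proliferation marker MKI67 at -0.08, PTMA at -0.09 and the chromatin protein HMGB1 at -0.09. HMGA2 ranked 4154 and HMGA1 4332 of 4356 for BACH1. For HMGA1 the most like were S100A6 at 0.21, RPL31 at 0.17, RGS10 at 0.16, TOMM34 at 0.16 and CAVIN3 at 0.16, and the lowest were PRDM2, LINC00632 and ANKRD1 at -0.10, -0.11 and -0.11. For HMGA2 the most like was its antisense transcript HMGA2-AS1 at 0.15, which shares its locus, followed by the nuclear RNAs NEAT1 at 0.13 and MALAT1 at 0.12, MLPH at 0.12 and CAPRIN2 at 0.12. Among the lowest for HMGA2 were RPS19 at -0.10 and NCL at -0.10. The middle 90% of all 4356 genes lay between -0.03 and 0.08 for each of BACH1 and HMGA1.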

How the data were processed

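Both tables were deposited as raw read counts per gene. The submitters' processing notes list Trim Galore, STAR and featureCounts, and the builds hg38 and hg19 without their roles. Versions, strand setting, molecular identifiers and any removal of mouse reads are not given in the sources used here. Identifiers without a symbol held 0.664% of the bulk counts and were kept.

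Cells were assigned to arm and experiment from their column names, and cells with fewer than 1000 detected genes (1 cell) were left out. Same-ending tumours were taken as pairs, since each labelled experiment holds 1 tumour per arm. Deviations of paired tumours from their arm means correlated at 0.169, 0.0559 and 0.171, each above all unmatched combinations of those tumours. No source used here says that replicate tumours are independent beyond their labels, so p-values measure the spread between these tumours.

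Levels were compared with edgeR 4.0.16 in R 4.3.3 (filterByExpr, TMM, quasi-likelihood F-test with robust dispersions), on the bulk counts and on cell counts summed per tumour with the experiment as a block. p-values are two-sided and Benjamini-Hochberg adjusted over all genes, with a threshold of 0.05. Variation used limma 3.58.1 on genes whose thinned mean reached 0.1, and DESeq2 1.42.0 was an alternative. Thinning was to 20000 counts without replacement (seed 1). Most-like genes were sought among those whose thinned mean reached 0.5 in every tumour. Correlations across bulk tumours used 100000 permutations. Scripts were tested on simulated data. Bulk and single-cell tables were tested separately.

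The members, gene lists and tests were chosen with earlier results of these data known. Besides the members, the named genes are, per list and comparison, up to 4 called genes by smallest p or, where none passed, the 2 with the smallest p, plus genes named after their values were seen (LIN28A, DIS3L2, FTL, MMP1 and HMGA2-AS1 in bulk, and SLC7A11 in cells). Some genes that this rule selects are not reported here.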

Additional observations from a re-analysis of the deposited data

How the results depend on the processing

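In every alternative run, none of the members tested in the main fits was called in either comparison of levels (bulk adjusted p-values of at least 0.101). LIN28B has enough reads only for the bulk fit with no filter on low counts, and its result there was not looked up. Signs of members near 0 turned: HMGA1 in bulk was -0.059 with the muscle covariate (which moved HMOX1 from 0.075 to 0.92 and BACH1 from 0.30 to 0.19), and leaving out single tumours gave HMGA1 -0.0049 to 0.12 and HMOX1 -0.26 to 0.26 (lowest without KMT5C tumour 816). In cells, thinning before summing gave HMGA1 -0.071 and SNAI1 0.091, and SNAI1 was 0.13 without the replicate block. Leaving out 1 experiment gave HMGA1 -0.080 to 0.15, HMGA2 -0.36 to 0.013, SNAI1 -0.85 to 0.46 and, for cell-to-cell variation, BACH1 -0.37 to 0.27. The cause was not tested.

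The number of bulk genes called, 531, was 1107 with DESeq2 (515 higher, 592 lower; 190 and 341 with edgeR), 801 with no filter, 22 with the muscle covariate and 337 to 681 without 1 tumour, lowest without KMT5C tumour 820 and also over 1.5 times lower without CTRL tumour 803 (351) or KMT5C tumour 807 (344). In cells the 1 call became 60 with DESeq2, 0 without the replicate block and 0 to 1 without 1 experiment, since rat Pebp1 missed the threshold without experiment 2 or 3. Calls for variation were 0 to 5 without 1 experiment.

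Genes of the lists that turned sign, none of them called, were in bulk with the muscle covariate MAP2K2 (-0.012), CXCR4 (-0.016), HMGA1P1 (-0.099) and KRT19 (-0.046), and FABP4 without 1 tumour (-0.33 to 0.33). In cells, thinning before summing gave MIRLET7BHG 0.17, KEAP1 0.0095, RPSAP52 -0.17 and KDR 0.25. Leaving out 1 experiment gave HUWE1 -0.30 to 0.075, RPSAP52 -0.055 to 0.53, NEB -0.13 to 0.74, LAPTM5 -0.0073 to 0.29, PECAM1 -0.81 to 0.074, KDR -0.69 to 0.45 and COL1A1 -0.074 to 0.54.

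Depth limits HMOX1 and SNAI1 in cells and LIN28B in bulk, where counts are few. LIN28B was not tested in the main bulk fit and was not found in the single-cell table. Shares of cells and correlations across cells also moved with the thinning depth (HMGA2 share difference -0.491 points at 10000 counts). The bulk arms share no replicate numbers. The HMGA2 variation without its highest cell was tried after seeing the data.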

Other observations

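HMGA1 and HMGA2, close relatives in sequence, stood at opposite ends of the ranking for 2 nuclear long RNAs. Across cells MALAT1 ranked 3 of 4356 for HMGA2 (mean Spearman correlation 0.12, positive in 6 of 6 tumours) and 4352 for HMGA1 (-0.09, positive in 1 of 6). NEAT1 ranked 2 for HMGA2 (0.13, positive in 5 of 6) and 4344 for HMGA1 (-0.08, positive in 0 of 6). With detected genes and the G2 and M phase score held fixed the means were 0.14 and -0.09 for MALAT1 and 0.12 and -0.09 for NEAT1. The values are small, the cells of a tumour share a library, and no test was made. The difference between the relatives was noticed in the ranking and not chosen beforehand.

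Some other pairs, also picked after their values were seen, follow as a description. The let-7 target IGF2BP3, an RNA-binding protein, was positively correlated with HMGA1 in all 6 tumours (mean 0.10, rank 84 of 4356). Its correlation was lower with HMGA2 (0.04, positive in 4 of 6) and BACH1 (0.03, positive in 3 of 6). Other let-7 targets looked at did not share this with HMGA1, with IGF2BP2 at 0.02 (rank 2044) and DICER1 at -0.01 (rank 3615). VIM, the mesenchymal intermediate filament, was positive in all 6 tumours with both HMGA1 (0.10) and BACH1 (0.07). ZEB1 and CD44 were at 0.02 and -0.02 with HMGA1 and at 0.06 and 0.05 with BACH1. The mitotic regulator TOP2A was positive with HMGA2 (0.07, 5 of 6) and negative with BACH1 (-0.07, positive in 1 of 6). MKI67 was at 0.03 with HMGA2 and -0.08 with BACH1.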
